A study of Mus musculus with 6 samples.

Results

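The genes described here act on the shape and number of mitochondria: Opa1, Opa3, Mfn1 and Mfn2 (fusion and inner membrane), Dnm1l, Fis1 and Mff (fission), and Ppargc1a, Tfam and Nrf1 (biogenesis). They are 10 of the 18193 single genes named on the array, 11219 of which were measured. They were taken by symbol: every probe set, a group of short probes that reads 1 transcript region, whose only gene in the platform annotation was 1 of these 10 genes. This gave 34 probe sets of the 45037 on the array that are not Affymetrix controls. A probe set entered the tests where it reached 4 on the log2 scale on at least 3 of the 6 arrays, whatever the age. Of the members 25 passed and 9 did not, and each gene kept at least 1. Over the whole array 20973 passed. The 9 probe sets below the filter belong to Opa1, Opa3, Mfn2, Dnm1l, Mff and Nrf1, and their values lay between 2.27 and 4.18.

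The 6 arrays each held 1 whole retina of a female DBA/2J mouse, 3 of animals aged 8 months with elevated intraocular pressure and 3 of animals aged 3 months with normal pressure. DBA/2J is an inbred strain in which pressure rises with age and retinal ganglion cells are lost, and it serves as a model of glaucoma. Last measured pressure averaged 27.4 ± 2.67 mmHg in the 8-month eyes, against 17.5 ± 1.99 mmHg in the 3-month eyes (SD, 3 animals per age). Age and pressure therefore differ together and cannot be told apart. Retinas of C57BL/6J mice were not analysed here. At 8 months retina 1 came from a left eye and retinas 2 and 3 from right eyes. The 3-month retinas all came from left eyes. With eye side as a covariate, the age difference therefore compares 8-month retina 1 alone with the 3-month retinas. The question was which of these genes differ between the ages.

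Mitochondria fuse and divide continuously. MFN1 and MFN2 are GTPases that join outer membranes, and OPA1 is a dynamin-related GTPase that joins inner membranes and shapes the cristae. Division is carried out by DRP1, the product of Dnm1l, which is recruited from the cytosol by outer membrane proteins such as MFF. New mitochondrial mass depends on the coactivator PGC-1α, the product of Ppargc1a, which works through nuclear factors such as NRF1 on genes that include Tfam, whose product packages and transcribes mitochondrial DNA. In humans, mutations of OPA1 and OPA3 cause inherited optic atrophy, in which retinal ganglion cells are lost.

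Retinal markers were bright on all arrays, Sag, the rod arrestin gene, lying between 13.80 and 13.90. Correlations between arrays over the tested probe sets lay between 0.985 and 0.994 across ages. The lens marker list, of which 9 of 13 genes were measured, varied most between single retinas. Its summed linear signal at 8 months was 17636 in retina 1 but 171 and 233 in retinas 2 and 3. At 3 months it was 32707 in retina 3 but 997 and 257 in retinas 1 and 2. Cryba4, Mip, Bfsp1 and Lim2 of that list were below the filter. The glial lists had median differences above 0. Astrocyte and gliosis genes, 6 of 8 listed, had a median log2 difference of 0.74, and their summed signal ran from 183 to 713 at 8 months and from 148 to 189 at 3 months. Gfap, the glial filament gene, differed by 1.07 (limma unadjusted p = 0.00523, adjusted p = 0.223). Microglial genes, 5 of 12 measured, had a median of 0.35 and summed to 793 to 1058 at 8 months and 537 to 574 at 3 months, with Aif1 among the 7 below the filter. Müller glia genes, all 10 measured, had a median of 0.06 and summed to 20953 to 22601 at 8 months and 18864 to 21381 at 3 months. Neuronal lists had medians below 0: -0.13 for rods (10 of 12 measured), -0.06 for cones (8 of 8) and -0.13 for ganglion cells (11 of 12). Over all measured genes the median was also below 0, at -0.06, and 63.5% were lower at 8 months. The cone median was thus that of the array as a whole. Sums for rods ran from 58369 to 59728 at 8 months and from 58966 to 63314 at 3 months, while cone sums were 3711 to 3792 at 8 months and 3840 to 4452 at 3 months. Ganglion cell sums were 4325 to 4569 at 8 months and 4551 to 5419 at 3 months. Whether the ages overlapped depended on the measure: by summed signal rods and ganglion cells overlapped and cones did not, and by mean log2 level cones overlapped and rods and ganglion cells did not. Pigment epithelium genes, 4 of 7 measured, summed to 253 to 941 at 8 months and 166 to 1489 at 3 months. Muscle genes, 4 of 13 measured with Acta1 and Ckm below the filter, had a median of 0.02, and of them Csrp3 alone had a difference above 0.04, at 1.14. The 1 blood gene measured of 6 differed by 0.13. The part of these lists in the results below was not tested. In RNA of a whole retina, fewer cells of a type and less RNA per cell cannot be told apart.

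None of the 25 tested member probe sets passed the adjusted threshold of 0.05 (limma, Benjamini-Hochberg over all 20973 probe sets), the smallest adjusted p being 0.255. Of all probe sets tested, 0.00477% passed. An unadjusted limma p under 0.05 was found for 4 member probe sets, or 16%, against 14.9% of all probe sets tested. All 4 were lower at 8 months, against 10.3% of all probe sets lower and 4.63% higher at that level. They were 2 probe sets of Ppargc1a, 1 of Tfam and 1 of Nrf1. The share of members at that level is thus near the share of the array as a whole. Leaving out 8-month retina 2 left a member count of 1, where 9.21% of all probe sets were called. It was 1 without 3-month retina 3 (11.1% of all) and 2 without 8-month retina 3 (12.5% of all). Without both lens-rich retinas it was 2, or 8%, against 7.47% of all. The 4 probe sets called on the deposited scale stayed lower at 8 months under each other scaling, but which probe sets passed changed. After quantile normalization 3 were lower (Opa1, Ppargc1a, Tfam) and 1 higher (Mfn1). After median centring and after cyclic loess 1 was lower (Tfam) and 1 higher (Mfn1). Over all probe sets the calls were 2155 lower and 971 higher as deposited, 1403 lower and 1388 higher after quantile normalization, 1372 lower and 1442 higher after cyclic loess, and 1000 lower and 2141 higher after median centring.

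The ages did not overlap in 5 of the 25 member probe sets, or 20%, against 21.8% of all probe sets tested (14.9% lower and 6.89% higher). Of these 5, 4 were lower at 8 months (Opa1, 2 of Ppargc1a, Tfam) and 1 was higher (Mfn1). The median log2 difference over the 25 was -0.01, with 13 lower and 12 higher, and the median over all probe sets tested was -0.04. Without regard to sign the median difference was 0.13 in the members and 0.13 in all. The largest differences among the members were -0.51 and 0.28, and 0 of them reached 2-fold, against 30 probe sets of the array.

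**Figure D1:**
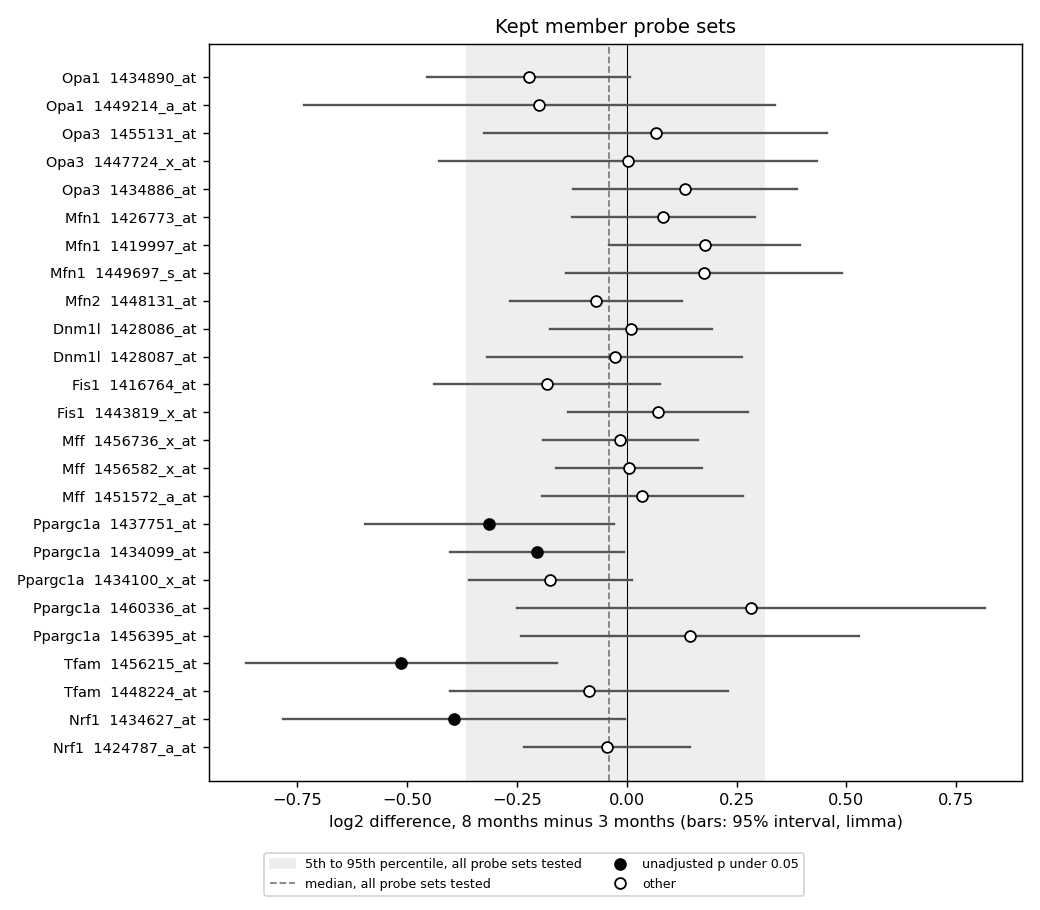
Log2 difference at 8 months minus 3 months for the 25 tested member probe sets, with limma 95% intervals from 3 retinas per age. Filled points have an unadjusted p under 0.05, the band spans the 5th to 95th percentile of all probe sets tested (-0.36 to 0.31), and only probe sets of Tfam and Nrf1 lie outside it.

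Opa1 had the brightest of its probe sets, 1434890_at, below at 8 months. It read 10.87, 10.94 and 10.85 in 8-month retinas 1 to 3, against 11.11, 10.96 and 11.26 in 3-month retinas 1 to 3. The ages did not overlap, but 8-month retina 2 and 3-month retina 2 lay only just apart. The log2 difference was -0.22 ± 0.10 (SE, n = 3 each), a ratio of 0.857 with a 95% interval of 0.730 to 1.01 (limma unadjusted p = 0.0567, adjusted p = 0.348). Its spread was small in the 8-month retinas (SD 0.04) and wider in the 3-month ones (SD 0.15), where the lens-rich retina 3 was highest. Without that retina the difference was -0.15, and without both lens-rich retinas it was -0.14. After quantile normalization, cyclic loess and median centring it was -0.23, -0.20 and -0.14. The limma unadjusted p was then 0.0485, 0.0790 and 0.186, and the adjusted p lay between 0.374 and 0.508. A dim Opa1 probe set, 1449214_a_at, read 4.01, 4.27 and 4.10 at 8 months and 4.79, 3.83 and 4.35 at 3 months. It overlapped between the ages, with a difference of -0.20 ± 0.23 (SE). Its remaining probe set, 1418768_at, stayed between 2.68 and 2.97, below the filter.

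The promoter of Opa1 is shown with those of Tfam and Mfn1, since these are 3 of the 4 genes with a probe set that separates the ages. The fourth, Ppargc1a, held none of the motifs searched. Sequences are RefSeq windows of GRCm38.p6, given 5′ to 3′ on the strand of the gene, with 250 bases before the transcript start and 50 from it on. Capitals mark matches to GCGCATGCG, a core of the site bound by NRF1, to CCGGAAGT, a core of the site bound by the ETS factor GABP, also called NRF-2, or to TGACGTCA, the cAMP response element. Both strands were searched. The first of these motifs overlaps its own reverse complement, CGCATGCGC, and both are in Opa1. Matches to different motifs did not overlap. The windows are chr16:29579084-29579383 on the plus strand for Opa1, chr10:71237995-71238294 on the minus strand for Tfam and chr3:32529232-32529531 on the plus strand for Mfn1.
Opa1: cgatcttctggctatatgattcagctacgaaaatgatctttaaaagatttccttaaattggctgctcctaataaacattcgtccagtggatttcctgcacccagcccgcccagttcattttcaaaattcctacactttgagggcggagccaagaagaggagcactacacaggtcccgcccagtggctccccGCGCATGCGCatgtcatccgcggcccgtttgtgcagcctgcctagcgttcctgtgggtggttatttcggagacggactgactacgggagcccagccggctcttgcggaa
Tfam: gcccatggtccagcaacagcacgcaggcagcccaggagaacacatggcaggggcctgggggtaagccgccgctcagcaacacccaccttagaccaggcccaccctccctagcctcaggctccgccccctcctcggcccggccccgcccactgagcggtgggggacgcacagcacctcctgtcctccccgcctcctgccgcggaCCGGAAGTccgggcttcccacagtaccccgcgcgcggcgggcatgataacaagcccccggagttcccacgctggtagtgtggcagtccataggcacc
Mfn1: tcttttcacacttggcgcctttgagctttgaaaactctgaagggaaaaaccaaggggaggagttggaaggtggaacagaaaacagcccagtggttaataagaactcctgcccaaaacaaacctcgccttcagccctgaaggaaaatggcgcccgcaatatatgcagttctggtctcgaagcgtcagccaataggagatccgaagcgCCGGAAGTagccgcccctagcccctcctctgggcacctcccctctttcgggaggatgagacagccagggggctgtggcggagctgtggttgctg

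All 10 members had a promoter in the table, 16 windows in all. Opa1 alone held the NRF1 letters, at -59 to -50 from the start, against 1.75% of the 32851 windows of all genes. The GABP letters were in windows of 3 members, at -47 to -40 in Tfam, at -44 to -37 in Mfn1 and in 2 windows of Fis1, against 3.89% of all windows. The cAMP element was in no member window and in 1.79% of all. The GC content was 53.3% in the Opa1 window, 70.3% in that of Tfam and 55.3% in that of Mfn1, against a median of 52.7%. The 371 measured genes with the NRF1 letters had a median log2 difference of -0.08, and 16.4% had an unadjusted limma p under 0.05. The 823 with the GABP letters had a median of -0.10 and 19.3%, and all 9066 measured genes with a promoter had -0.06 and 15.0%. The NRF1 motif was first searched as the 10 letters that it and its reverse complement form together, and was shortened to 9 after those results were seen. Those 10 letters are in 0.971% of all windows, Opa1 again being the only member, and the 210 measured genes with them had a median of -0.08 and 15.7%. All these motifs were chosen after the members' values were seen, and a match describes letters, not binding.

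All 3 Mfn1 probe sets had a higher mean at 8 months, and none passed the test. The probe set 1419997_at read 8.04, 7.97 and 7.94 at 8 months and 7.86, 7.90 and 7.66 at 3 months. The ages did not overlap, and 3-month retina 3 was lowest. The log2 difference was 0.18 ± 0.09 (SE, n = 3 each; limma unadjusted p = 0.0952, adjusted p = 0.407). Its unadjusted p passed 0.05 under each other scaling, at 0.0455 after quantile normalization, 0.0349 after cyclic loess and 0.0299 after median centring, with limma adjusted p from 0.299 to 0.370. The difference was 0.08 without both lens-rich retinas.

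A second Mfn1 probe set, 1449697_s_at, is of the less specific kind, whose probes may match other transcripts, and was designed from the same source sequence. It read 7.05, 7.27 and 7.25 at 8 months and 7.13, 7.17 and 6.75 at 3 months, and differed by 0.18 ± 0.13 (SE). The brightest, 1426773_at, read 8.36, 8.19 and 8.16 at 8 months and 8.22, 8.09 and 8.16 at 3 months, a difference of 0.08 ± 0.09 (SE). These 2 probe sets overlapped between the ages.

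Mfn2, the other mitofusin gene, was read by 1448131_at at 7.92, 8.10 and 8.06 at 8 months and 8.09, 8.14 and 8.05 at 3 months. Its log2 difference was -0.07 ± 0.08 (SE), with a 95% interval of -0.27 to 0.13, and its direction turned to 0.01 after median centring. Over the 6 arrays Mfn2 was lowest in 8-month retina 1, where the brightest Mfn1 probe set was highest, and their correlation was -0.90. This was the lowest of 45 pairs of members, picked after the values were seen, within ranges of 0.22 for Mfn2 and 0.27 for Mfn1. In that retina the Mfn1 set 1419997_at was also highest, at 8.04, but 1449697_s_at was lowest of its age, at 7.05. Opa3, which encodes a mitochondrial protein, had 3 tested probe sets, all with overlapping ages. The brightest, 1455131_at, read 6.26, 6.39 and 6.17 at 8 months and 6.58, 6.06 and 5.98 at 3 months. The differences of the 3 were 0.07, 0.00 and 0.13, and the brightest turned to -0.05 without 3-month retina 3.

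Of the fission genes, Dnm1l and Mff differed little between the ages. Dnm1l, through 1428086_at, read 9.71, 9.79 and 9.80 at 8 months and 9.70, 9.81 and 9.77 at 3 months. The difference was 0.01 ± 0.08 (SE), a ratio of 1.01 with a 95% interval of 0.886 to 1.14 (limma adjusted p = 0.966). A second probe set from the same source sequence, 1428087_at, differed by -0.03 ± 0.12 (SE). These 2 ran against each other over the 6 arrays, at a correlation of -0.66, within a range of 0.11 for the brighter and 0.39 for the dimmer.

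Mff had 3 tested probe sets, and their differences were -0.01, 0.01 and 0.04. The brightest, 1456736_x_at, read 12.50, 12.49 and 12.55 at 8 months and 12.54, 12.47 and 12.57 at 3 months. A second, 1456582_x_at, stayed within 0.02 over all 6 arrays, and 0.224% of the tested probe sets had a spread within ages as small. Both are of the less specific kind, and the specific probe set, 1451572_a_at, read 9.34, 9.26 and 9.28 at 8 months and 9.09, 9.34 and 9.35 at 3 months. None of the 3 separated the ages. The 95% intervals of the ratio in the 3 probe sets lay between 0.875 and 1.20.

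Fis1, which encodes a small outer membrane protein, had probe sets of opposite sign. The brighter, 1416764_at, read 9.13, 8.99 and 9.14 at 8 months and 9.46, 9.13 and 9.22 at 3 months, and 3-month retina 1 stood highest. Its log2 difference was -0.18 ± 0.11 (SE; limma unadjusted p = 0.140, adjusted p = 0.461), and -0.08 without 3-month retina 1. The dimmer, less specific 1443819_x_at differed by 0.07 ± 0.09 (SE). Both overlapped between the ages.

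**Figure D2:**
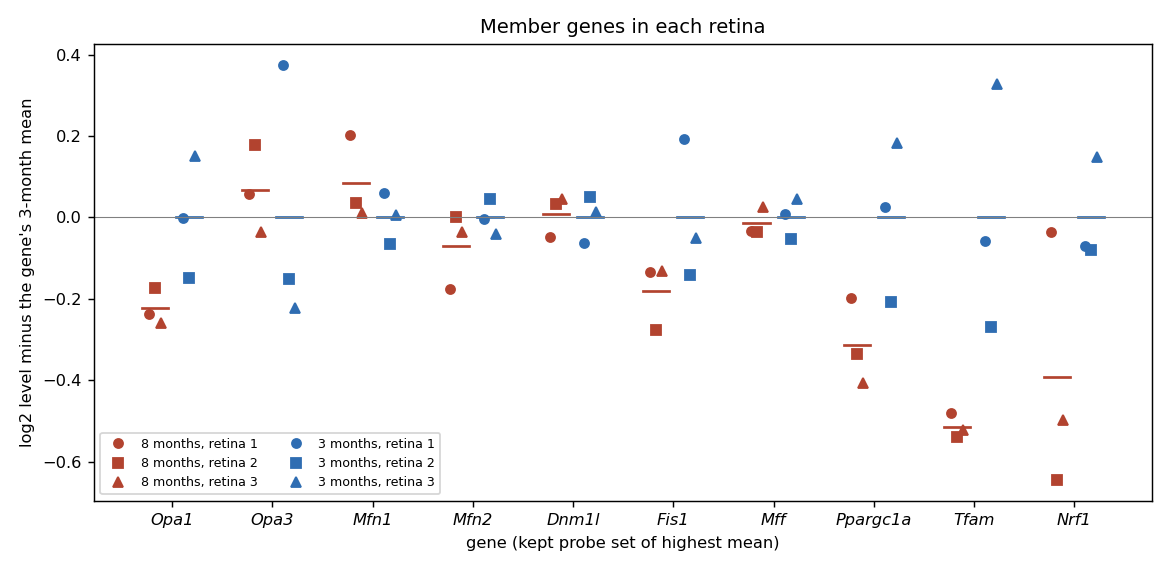
Log2 level of each member gene in each retina, relative to the gene's 3-month mean, for its tested probe set of highest mean. Bars are group means; the 8-month retinas lie together below the 3-month ones in Opa1 and Tfam, and the ages mix in the others, with 8-month retina 1 of Nrf1 among the 3-month values.

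The biogenesis genes held the 4 member probe sets with an unadjusted p under 0.05. Tfam had the largest difference, in 1456215_at, which read 7.48, 7.42 and 7.44 at 8 months and 7.90, 7.69 and 8.29 at 3 months. All 8-month values lay below all 3-month values, close together at 8 months (SD 0.03) and wide at 3 months (SD 0.30). The log2 difference was -0.51 ± 0.15 (SE, n = 3 each), a ratio of 0.700 with a 95% interval of 0.548 to 0.895 (limma unadjusted p = 0.0109, adjusted p = 0.255). Of all probe sets tested, 97.4% had a difference no larger in size.

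The highest Tfam value was in 3-month retina 3, which is lens-rich, while 8-month retina 1, also lens-rich, read like the other 8-month retinas. Without 3-month retina 3 the difference was -0.35, and without both lens-rich retinas -0.37 (limma unadjusted p = 0.0126 and 0.0288). With eye side as a covariate, where 8-month retina 1 alone stands for its age, it was -0.48. The other Tfam probe set, 1448224_at, read 6.40, 6.32 and 6.47 at 8 months and 6.75, 6.46 and 6.25 at 3 months. It overlapped, with a difference of -0.09 ± 0.13 (SE; limma unadjusted p = 0.540), and was lowest in the very retina where 1456215_at was highest. Over the 6 arrays the 2 Tfam probe sets correlated at -0.07.

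Ppargc1a had 5 tested probe sets, 3 bright and lower at 8 months and 2 dim and higher. The brightest, 1437751_at, read 9.79, 9.65 and 9.58 at 8 months and 10.01, 9.78 and 10.17 at 3 months. Its difference was -0.31 ± 0.12 (SE, n = 3 each), a ratio of 0.805 with a 95% interval of 0.661 to 0.980 (limma unadjusted p = 0.0348, adjusted p = 0.307). The ages overlapped slightly, since 8-month retina 1 and 3-month retina 2 were almost level. With eye side as a covariate, where 8-month retina 1 alone stands for its age, the difference was -0.20. The limma unadjusted p was 0.0419 after quantile normalization, 0.0550 after cyclic loess and 0.0852 after median centring. The mean difference over all 5 tested probe sets was -0.053.

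The probe set 1434099_at of Ppargc1a read 9.23, 9.36 and 9.43 at 8 months and 9.57, 9.54 and 9.51 at 3 months, a difference of -0.21 ± 0.08 (SE; limma unadjusted p = 0.0443, adjusted p = 0.325). Its less specific partner from the same source sequence, 1434100_x_at, read 9.26, 9.35 and 9.37 at 8 months and 9.56, 9.45 and 9.49 at 3 months. In both the ages did not overlap, and the pair correlated at 0.95. The 2 dim Ppargc1a probe sets overlapped between the ages. The set 1460336_at read 6.02, 5.62 and 5.58 at 8 months and 5.92, 5.36 and 5.08 at 3 months, a difference of 0.28 ± 0.23 (SE). The set 1456395_at read 5.06, 5.27 and 5.05 at 8 months and 5.27, 5.03 and 4.65 at 3 months, a difference of 0.14 ± 0.16 (SE). Both were lowest in 3-month retina 3, where the brightest set was highest, and they correlated with that set at -0.31 and -0.54. Without both lens-rich retinas the 5 differences were -0.28, -0.16 and -0.15 for the bright sets and -0.04 and 0.01 for the dim ones.

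Nrf1, which encodes a transcription factor for nuclear genes of mitochondrial proteins, was dim. The set 1434627_at read 4.93, 4.32 and 4.47 at 8 months and 4.90, 4.89 and 5.12 at 3 months. The left-eye 8-month retina 1 lay among the 3-month retinas, all of left eyes, and the right-eye retinas 2 and 3 lay below. Retina 1 was also the lens-rich one of its age, with the lowest last pressure (25.3 mmHg) and the lowest gliosis sum (183). Eye side cannot be told apart from these. The log2 difference was -0.39 ± 0.16 (SE, n = 3 each; limma unadjusted p = 0.0482, adjusted p = 0.332), and with eye side as a covariate it was -0.04 (limma unadjusted p = 0.812). Without both lens-rich retinas the difference was -0.50 (limma unadjusted p = 0.00648, adjusted p = 0.664). When each array was left out it lay between -0.57 and -0.27. After quantile normalization, cyclic loess and median centring the limma unadjusted p was 0.0521, 0.0597 and 0.0948. The second tested set, 1424787_a_at, read 4.79, 4.72 and 4.73 at 8 months and 4.73, 4.77 and 4.88 at 3 months, a difference of -0.05 ± 0.08 (SE). The 2 sets below the filter differed by -0.09 and -0.11.

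**Figure D3:**
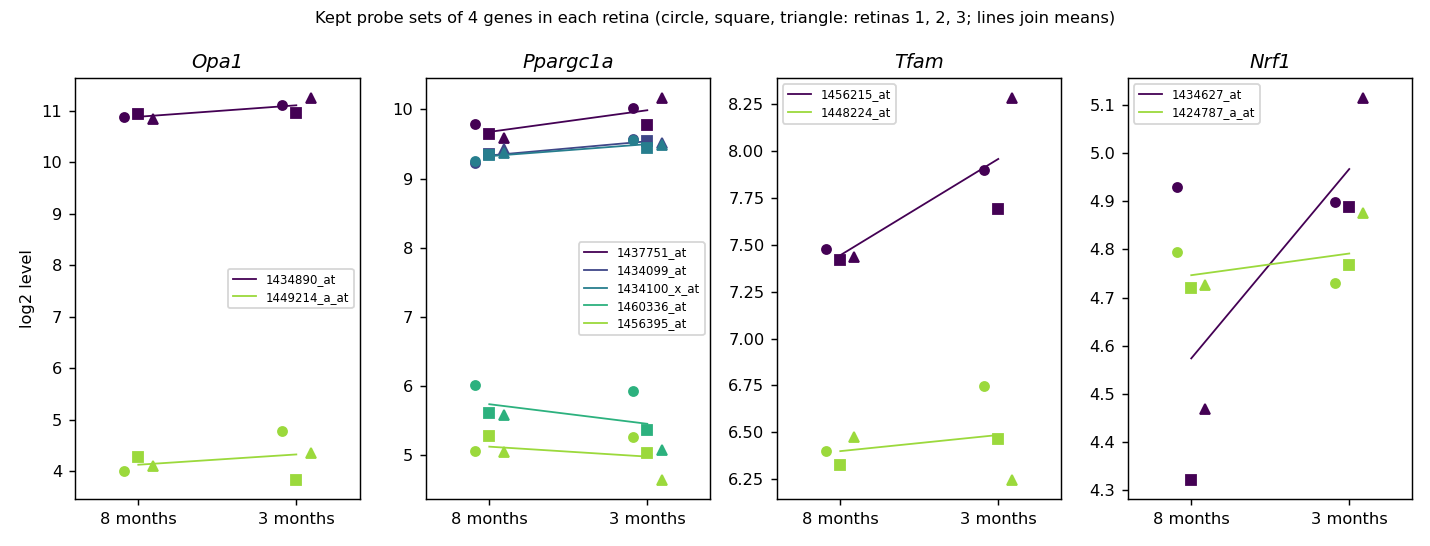
Log2 levels of every tested probe set of Opa1, Ppargc1a, Tfam and Nrf1 in each retina, with 8 months on the left, and lines joining the group means. The 3 bright Ppargc1a sets are lower at 8 months and the 2 dim ones higher, and the Tfam and Nrf1 sets of largest difference have a second set that differs by -0.09 and -0.05.

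Probe sets of the same gene agreed poorly over the arrays. Of 24 pairs within a gene, 10 pairs had differences of opposite sign between the ages, and the correlation over the 6 arrays had a median of -0.07 and ranged from -0.66 to 0.95. The 4 pairs from 1 source sequence had correlations of 0.88 for Opa3, 0.76 for Mfn1, 0.95 for Ppargc1a and -0.66 for Dnm1l. Between genes, the brightest probe sets of Opa1, Ppargc1a and Tfam went together: the correlations were 0.97 for Opa1 and Tfam, 0.94 for Opa1 and Ppargc1a and 0.95 for Ppargc1a and Tfam, the 3 highest of 45 pairs of members. These 6 points share the split by age and the high 3-month retina 3, so the values are a description. Outside the members the genes most like Opa1 over the 6 arrays were Tafa4, Tsen15, Zik1, Sync and Supt6, each at a correlation of 0.99. As many as 144 of 11209 genes reached 0.95.

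The other genes of these pathways were read by 1 probe set each, the brightest tested one, in 8 lists. Of 144 listed genes 129 were measured. No gene passed the adjusted threshold (limma), and 26 had an unadjusted limma p under 0.05, or 20.2%, against 15.1% of the 11219 measured genes. Of the 26, 24 were lower at 8 months and 2 higher, where 11.5% of all measured genes were lower and 3.58% higher at that level. That count was 11 with 8-month retina 1 left out, where 9.83% of all probe sets tested were called. It was 14 with 8-month retina 2 left out (9.21% of all). It was 16 with either 3-month retina 1 (12.2% of all) or 3-month retina 3 (11.1% of all) left out. Without both lens-rich retinas it was 11, or 8.53%, against 7.47% of all probe sets tested. In each of these runs the share called over the array also fell below the 14.9% of the main run. Of all measured genes, 63.5% had a lower mean at 8 months, called or not. That share was 54.7% after quantile normalization, 53.4% after cyclic loess and 44.4% after median centring, and the share of each list below is to be read against it. The calls were 13 lower and 6 higher after quantile normalization, 11 lower and 6 higher after cyclic loess, and 8 lower and 11 higher after median centring.

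Partners of fusion and enzymes that act on OPA1 were lower in 10 of 13 genes, with a median log2 difference of -0.18 against -0.06 over all measured genes. Of the 13, 5 (38.5%, against 15.1% of all measured genes) had an unadjusted limma p under 0.05, all lower. Stoml2, an inner membrane scaffold gene of the stomatin family, read 5.92, 6.10 and 5.74 at 8 months and 6.40, 6.27 and 6.36 at 3 months. The ages did not overlap, and the difference was -0.43 ± 0.11 (SE; limma unadjusted p = 0.00564, adjusted p = 0.223). Parl, an inner membrane rhomboid protease gene, differed by -0.35, Miga1, which promotes fusion at the outer membrane, by -0.29, and Phb2, a prohibitin gene, by -0.21, each without overlap of the ages. Afg3l2, a subunit gene of an inner membrane protease, differed by -0.33 with overlap and was named after its value was seen. The list stayed lower in 9 to 10 of 13 genes under the other scalings. Its calls were then 3 lower and 1 higher with quantile or cyclic loess scaling, and 2 lower and 1 higher after median centring. Without both lens-rich retinas 2 of the 13 were called, both lower, or 15.4%, against 7.47% of all probe sets tested.

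Fission adaptors and regulators were lower in 14 of 17 genes, with a median of -0.09. Of the 17, 2 (11.8%, against 15.1% of all measured genes) had an unadjusted limma p under 0.05, both lower. Under each other scaling 1 of the 17 did, again lower, and without both lens-rich retinas 0 did. Pgam5, a mitochondrial phosphatase gene, read 8.21, 8.20 and 8.23 at 8 months and 8.66, 8.41 and 8.59 at 3 months. All 8-month values lay below the 3-month ones, and the difference was -0.34 ± 0.09 (SE; limma unadjusted p = 0.00655, adjusted p = 0.226). Mief2, which encodes a receptor for DRP1, differed by -0.19, also without overlap. Marchf5, a ubiquitin ligase gene of the outer membrane, and Dnm3, a dynamin gene, differed by -0.25 and -0.15 with overlap, and the 3 Dnm3 probe sets ranged from -0.15 to 0.15. After median centring 10 of the 17 were lower.

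Cristae organising genes, which hold the MICOS complex, were lower in all 9 measured, with a median of -0.20, where 63.5% of all measured genes were lower. Of the 9, 1 (11.1%, against 15.1% of all measured genes) had an unadjusted limma p under 0.05. That was Immt, a core subunit gene, at 8.45, 8.55 and 8.58 at 8 months and 8.90, 8.63 and 8.84 at 3 months, a difference of -0.26 ± 0.10 (SE; limma unadjusted p = 0.0329, adjusted p = 0.305). Chchd3, Chchd6 and Micos13, further subunit genes, differed by -0.23, -0.29 and -0.30, and of these Chchd3 separated the ages, while the 2 Chchd6 probe sets ranged from -0.29 to -0.07. Under the other scalings 7 to 8 of the 9 stayed lower.

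Genes of mitochondrial DNA maintenance and transcription were lower in 13 of 17, with a median of -0.15. Of the 17, 5 (29.4%, against 15.1% of all measured genes) had an unadjusted limma p under 0.05, all lower and without overlap. In either direction the ages did not overlap in 8 of the 17, against 21.8% of all probe sets tested. Without both lens-rich retinas 4 of the 17 were called, all lower. Tefm, the mitochondrial transcription elongation factor gene, read 5.21, 5.15 and 5.25 at 8 months and 5.58, 5.93 and 6.14 at 3 months. Its difference was the largest of all 129 genes, at -0.68 ± 0.14 (SE; limma unadjusted p = 0.00206, adjusted p = 0.207). The matrix protease gene Lonp1 differed by -0.39, the transcription factor gene Tfb2m by -0.34 and the topoisomerase gene Top1mt by -0.29. Twnk, the helicase gene, differed by -0.23 and was named after its value was seen. After median centring 9 of the 17 were lower. The calls were 2 lower and 1 higher after quantile normalization and after median centring, and 3 lower and 1 higher after cyclic loess.

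Biogenesis coactivators, nuclear factors and kinases were split, with 11 of 22 lower and a median of 0.01. Of the 22, 5 (22.7%, against 15.1% of all measured genes) had an unadjusted limma p under 0.05, all lower on the deposited scale. The calls were 3 lower and 1 higher after quantile normalization, 2 lower and 1 higher after cyclic loess, and 2 in each direction after median centring. Without both lens-rich retinas 16 of the 22 were lower. Sirt3, a mitochondrial deacetylase gene, read 6.73, 6.87 and 6.83 at 8 months and 7.24, 7.17 and 7.09 at 3 months. The ages did not overlap, and the difference was -0.36 ± 0.08 (SE; limma unadjusted p = 0.00349, adjusted p = 0.218). Ppargc1b, the coactivator gene related to Ppargc1a, read 5.86, 5.71 and 6.00 at 8 months and 6.01, 6.40 and 6.20 at 3 months, a difference of -0.35 ± 0.13 (SE). The orphan receptor gene Esrrb differed by -0.49 and Prkab1, a subunit gene of the kinase AMPK, by -0.31, both without overlap, and their probe sets ranged from -0.49 to -0.07 for Esrrb and from -0.40 to -0.31 for Prkab1. Nrip1, a corepressor gene, differed by -0.43 with overlap, its 3 probe sets ranging from -0.43 to -0.13, and was named after its value was seen.

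Mitophagy and quality control genes were lower in 13 of 20, with a median of -0.11. Of the 20, 4 (20%, against 15.1% of all measured genes) had an unadjusted limma p under 0.05, all lower on the deposited scale. The calls were 1 lower with quantile or cyclic loess scaling, 1 higher after median centring, and 0 without both lens-rich retinas. The 4 were Park7, a gene of inherited Parkinson's disease in humans, at -0.22, Gabarapl2, an autophagosome gene, at -0.24, Usp30, a mitochondrial deubiquitinase gene, at -0.33, and Phb2 again. Of these only Usp30 overlapped between the ages. In mitochondrial transport 7 of 13 were lower, with a median of -0.01. That median turned to 0.03 after quantile normalization, 0.04 after cyclic loess and 0.07 after median centring. Of the 13, 3 (23.1%, against 15.1% of all measured genes) had an unadjusted limma p under 0.05, 2 lower and 1 higher. Trak1, an adaptor gene between mitochondria and motors, read 8.94, 8.87 and 8.73 at 8 months and 9.24, 9.15 and 9.43 at 3 months, a difference of -0.43, though its 3 probe sets ranged from -0.43 to 0.11. The kinesin gene Kif5b was higher in all 5 of its probe sets, by 0.16 to 0.47, and its brightest read 10.51, 10.48 and 10.55 at 8 months and 10.15, 10.39 and 10.16 at 3 months (limma unadjusted p = 0.0205, adjusted p = 0.278). Rhot1, the gene of the anchor MIRO1, differed by -0.24 and Snph, the gene of the axonal anchor syntaphilin, by 0.22, both without overlap, and the 3 Rhot1 probe sets ranged from -0.34 to 0.10.

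The list drawn as outer membrane and matrix content also holds inner membrane genes, and was lower in 11 of 19, with a median of -0.03. Of the 19, 2 (10.5%, against 15.1% of all measured genes) had an unadjusted limma p under 0.05, 1 in each direction. Mitochondrial content itself was not measured. The import genes Timm44 and Tomm22 differed by -0.34 and 0.37, both with overlap, but their probe sets ranged from -0.41 to 0.08 for Timm44 and from -0.15 to 0.37 for Tomm22. Timm23, a further import gene, differed by -0.20 without overlap, and Slc25a4, the adenine nucleotide translocator gene, by 0.28 with overlap, its 4 probe sets ranging from -0.17 to 0.28. The median turned to 0.01 after cyclic loess and 0.06 after median centring, where 4 of the 19 were lower.

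**Figure D4:**
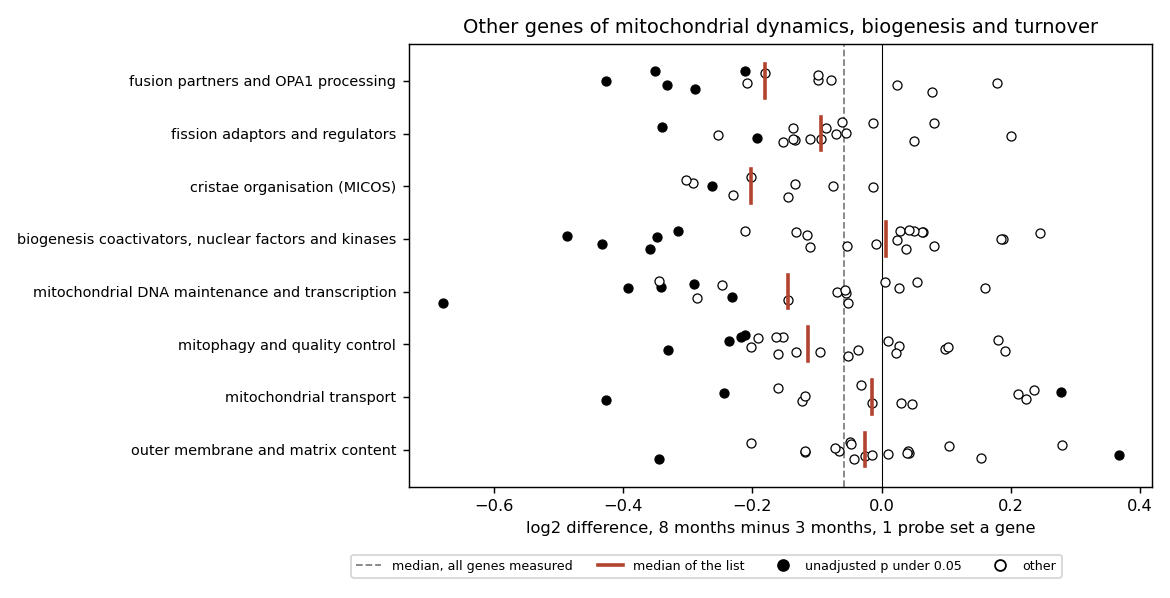
Log2 difference at 8 months minus 3 months for each measured gene of the 8 further lists, 1 probe set a gene. Filled points have an unadjusted p under 0.05 (24 lower, 2 higher, with Phb2 drawn in 2 lists), red bars are list medians, and the dashed line is the median of all measured genes (-0.06).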

How the data were processed

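The deposited values are log2 signals per probe set, made by the authors with GCRMA (version 1.1.0, under R 1.9.0), as the submitters' processing notes record. Its options are not given in the sources used here. GCRMA shrinks weak signals to a floor and can understate differences of dim probe sets. Of 45101 probe sets, 64 Affymetrix controls were left out. Gene names are those of the platform annotation: 1 gene for 34945 probe sets, several for 932 and none listed for 9160. By gene identifier all 10 members are in the RefSeq table (GRCm38.p6).

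The age comparison used limma 3.58.1 (lmFit, then eBayes; R 4.3.3), two-sided, without covariates, on 20973 probe sets, with Benjamini-Hochberg adjustment and a threshold of 0.05. SE and 95% intervals come from this fit, and the code was tested on simulated data. The members and lists were chosen with earlier results of these data known. All members were described, and up to 4 genes of smallest p were named per list, with the 5 genes most like Opa1. Of 246 listed symbols, 14 had no single-gene probe set here. The number of arrays limits the precision. The alternatives were other filters, scalings, covariates, probe sets, variance models and samples.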

Additional observations from a re-analysis of the deposited data

How the results depend on the processing

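No member probe set passed the adjusted threshold under any alternative run (limma). The main values were 4 member probe sets and 26 further genes with an unadjusted limma p under 0.05, and a member median of -0.01. The member count was 2 with median centring, 2 with cyclic loess, 1 with eye side as a covariate, 2 without both lens-rich retinas, and 1 to 4 when each array was left out. The count of further genes was 17 with cyclic loess, 12 with eye side as a covariate, 11 without both lens-rich retinas, and 11 to 31 when each array was left out. The member median was 0.030 after quantile normalization, 0.068 after median centring, 0.040 after cyclic loess, and -0.05 to 0.01 when each array was left out. Over all probe sets the median was -0.04 as deposited, -0.01 after quantile normalization, 0.04 after median centring and 0.00 after cyclic loess. The share of all probe sets with an unadjusted limma p under 0.05 also moved. It was 14.9% in the main run, 7.47% without both lens-rich retinas, and 9.21% to 19.6% when each array was left out.

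Deviations of same-numbered retinas correlated at -0.14, 0.06 and -0.28. The highest correlation of any pair across ages, 0.38, was between the lens-rich 8-month retina 1 and 3-month retina 3. With 3 retinas per age, these values cannot settle whether the replicate numbers pair the retinas. With the number as a replicate block, 2 member probe sets and 15 further genes had an unadjusted limma p under 0.05.

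Among the brightest probe sets, Opa1, Mfn1, Fis1, Ppargc1a, Tfam and Nrf1 kept their direction under every alternative that gave a value, with no adjusted call. Nrf1 gave none with the filter at 6. The others, all near 0, turned in some. Mfn2 became 0.013 after median centring. Dnm1l became -0.049 with eye side as a covariate, -0.0090 as the mean over its probe sets, and lay between -0.022 and 0.039 when each array was left out. Mff became 0.068 after median centring, 0.036 without less specific probe sets, 0.017 without both lens-rich retinas, 0.0090 as the mean over its probe sets, and lay between -0.041 and 0.0082 when each array was left out. Opa3 became -0.041 without both lens-rich retinas and lay between -0.045 and 0.25 when each array was left out. The cause was not tested.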
